A study of Mus musculus with 3 samples.

Results

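Oxidative phosphorylation genes were described in non-muscle cells of the mouse left ventricle. The members were every gene whose symbol names a subunit of respiratory complex I to V, by prefix (Ndufa, Ndufb, Ndufc, Ndufs, Ndufv, Uqcr, Cox4 to Cox8, Atp5), the 4 subunits of succinate dehydrogenase, Cyc1, and the protein genes of mitochondrial DNA. This gave 107 of the 30360 genes in the files. The nuclear genome encodes 94 of them under 93 symbols (Atp5o is listed under 2 identifiers), and mitochondrial DNA encodes the other 13. The nuclear members comprised 36 complex I subunits, 4 of complex II, 9 of complex III, 20 of complex IV and 17 of complex V. The prefixes also took in 8 complex I assembly factors (Ndufaf genes), which help to build the complex but are not part of it. The testis isoforms Cox8c and Cox7b2 were close to absent, with 1 UMI for Cox8c and 5, 8 and 13 UMIs for Cox7b2 in the kept cells of HFpEF-FoxO1-sh, HFpEF-scr and Control.

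Complexes I and II pass electrons from NADH and succinate through ubiquinone to complex III, and cytochrome c carries them on to complex IV, which reduces oxygen. Complexes I, III and IV pump protons across the inner mitochondrial membrane, and complex V, the ATP synthase, uses the gradient to make ATP. Complex II is wholly nuclear-encoded, whereas the other complexes are built from subunits of both genomes. Mitochondrial RNA is transcribed as long precursors from both DNA strands and is then cut into single transcripts. The heart depends on this pathway for contraction, and its vessel wall cells and fibroblasts hold fewer mitochondria than its muscle cells.

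Droplet 3' single-cell RNA was measured in 3 libraries of left-ventricular cells from C56Bl6 mice, each from 4 pooled samples. For HFpEF-FoxO1-sh the diet was High-Fat + L-NAME, fed for 6 weeks, and the vector was AAV-FoxO1-sh, given for 4 weeks. HFpEF-scr had the same diet and times with AAV-scramble-sh. Control mice had a standard diet for 10 weeks, and no vector is named for them. L-NAME inhibits nitric oxide synthases, and together with fat-rich food it serves as a mouse model of HFpEF, heart failure in which the ejection fraction is preserved. Heart muscle cells were strained out at 70 µm and red cells were lysed. Neither the cells that the vector enters nor the age of the animals is given. With 1 library per group no test was possible, so every ratio below compares libraries rather than conditions, and every interval (95%) covers counting error only. Both comparisons, HFpEF-FoxO1-sh over HFpEF-scr and HFpEF-scr over Control, rest on the same HFpEF-scr library, so a value that is unusual in HFpEF-scr enters them with opposite signs.

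The matrices held 27453, 36179 and 33022 barcodes and 144561934, 154385813 and 146230530 unique molecular identifiers (UMIs, counted RNA molecules) in HFpEF-FoxO1-sh, HFpEF-scr and Control. The libraries differed in their mitochondrial RNA before any cell was chosen. The median share of mitochondrial UMIs per barcode was 11.7%, 22.1% and 24.6%. Barcodes above 20%, the limit set for cells, were 31.2%, 53.8% and 56.9% of each library. After filtering, 16854, 14567 and 12757 cells were kept, with median depths of 6607, 6520 and 6889 UMIs. Pairs of libraries shared 37 to 61 kept barcodes. Marker genes gave 14 classes with at least 50 kept cells in each library. The classes described most were fibroblasts (9913, 8424 and 7663 cells), macrophages (1968, 1508 and 1088), endothelial cells (539, 670 and 460) and smooth muscle cells (348, 352 and 390), with pericytes (336, 72 and 142) beside them. Each name means cells that are like that class by its markers. The platelet and erythroid classes, 2 of the 14, carried the most fibroblast markers beside fibroblasts themselves. Those summed to 54821, 56106 and 54548 CPM in the platelet class and 36125, 43767 and 41820 CPM in the erythroid class. Fibroblasts held 55918, 59311 and 58868 CPM, so these classes are not apart from fibroblasts by those markers. Other classes carried them at lower levels, among them B cells (4036, 24262 and 28387 CPM), pericytes (9663, 18546 and 17767 CPM) and Schwann cells (7751, 14222 and 14224 CPM). Foxo1, the target of the hairpin, had 65.8, 63.9 and 69.8 CPM over all kept cells, a ratio of 1.03 (0.993 to 1.06) for HFpEF-FoxO1-sh over HFpEF-scr. The sample is therefore called the library labelled HFpEF-FoxO1-sh. In endothelial cells Foxo1 was lower in it, at 72.6 CPM, against 93.7 CPM in HFpEF-scr and 77.4 CPM in Control (ratio to HFpEF-scr 0.775, 0.674 to 0.891).

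Nuclear respiratory genes are known to be controlled through a few promoter motifs. As examples, 3 promoters of complex IV genes are shown, of a widely made isoform and of muscle isoforms described further on. RefSeq promoters (GRCm38.p6, 250 bases before the start) matched 74 of the 93 nuclear symbols, with 79 promoters. The palindrome of nuclear respiratory factor 1 (NRF1), searched by its core CGCATGCG, was in 8 of the 79 (10.1%), against 1.55% of all 32851 promoters. The core that ETS factors such as GABP bind, CCGGAAG on either strand, was in 14 (17.7%), against 6.91% of all. A FoxO core, TGTTTAC on either strand, was in 2 (2.53%; Cox7a2 and Ndufaf1), against 3.17% of all. Each motif was searched by itself on both strands, so that matches of different motifs could overlap, and a match describes letters, not binding. Cox6a1, a subunit of cytochrome c oxidase made in most tissues, was 1 of 3 members with both an NRF1 and an ETS match (the others were Atp5j and Atp5l), and these matches, which do not overlap, are in capitals. Cox7a1 and Cox8b, isoforms of the same complex used by heart and skeletal muscle, had neither in this window. Most member promoters had neither, among them that of Cox7a2, the common counterpart of Cox7a1. The 3 promoters therefore do not compare common with muscle isoforms.
Cox6a1, chr5:115348959-115349208, minus strand: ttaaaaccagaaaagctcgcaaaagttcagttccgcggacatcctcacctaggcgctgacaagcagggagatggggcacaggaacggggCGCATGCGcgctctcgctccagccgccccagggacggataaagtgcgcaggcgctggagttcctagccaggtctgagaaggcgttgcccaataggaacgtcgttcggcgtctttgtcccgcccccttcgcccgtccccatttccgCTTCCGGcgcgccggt
Cox7a1, chr7:30183921-30184170, plus strand: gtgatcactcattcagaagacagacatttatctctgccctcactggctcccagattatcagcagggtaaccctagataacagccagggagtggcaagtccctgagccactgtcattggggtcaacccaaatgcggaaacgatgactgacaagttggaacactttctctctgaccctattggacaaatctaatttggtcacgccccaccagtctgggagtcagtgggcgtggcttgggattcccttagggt
Cox8b, chr7:140900447-140900696, minus strand: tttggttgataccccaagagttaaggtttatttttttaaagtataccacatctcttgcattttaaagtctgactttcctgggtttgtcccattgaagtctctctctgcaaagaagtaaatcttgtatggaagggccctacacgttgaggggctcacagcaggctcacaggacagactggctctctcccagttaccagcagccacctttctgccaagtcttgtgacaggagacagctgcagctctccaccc

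The nuclear members together took more of the RNA in smooth muscle cells than in any other of the 14 classes. Levels are in CPM, the UMIs of a gene or group per 1000000 UMIs of nuclear-encoded genes in that class and library, so that mitochondrial RNA does not enter them. Their sum was 40156, 36151 and 36105 CPM in smooth muscle cells of the library labelled HFpEF-FoxO1-sh, HFpEF-scr and Control. Pericytes, the mural cells of capillaries, followed with 33957, 24982 and 28654 CPM. Fibroblasts held 21131, 20971 and 20944 CPM, macrophages 20123, 20287 and 20208 CPM, and endothelial cells 23591, 22566 and 23695 CPM. Fibroblasts and macrophages thus lay close to each other in every library, whereas smooth muscle lay above every other class in all of them. By the mean of the 3 libraries, 65 of the 94 nuclear members were highest in smooth muscle, 11 in pericytes, 5 in Schwann cells and 3 in endothelial cells. The 94 include members close to absent, such as Cox7b2 and Cox8c. No such count was made over all nuclear genes, so it is a description. Cells that kept heart muscle markers had the highest sums of all, 99084, 64887 and 140565 CPM, but numbered 45, 22 and 16 and were not compared.

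**Figure D1:**
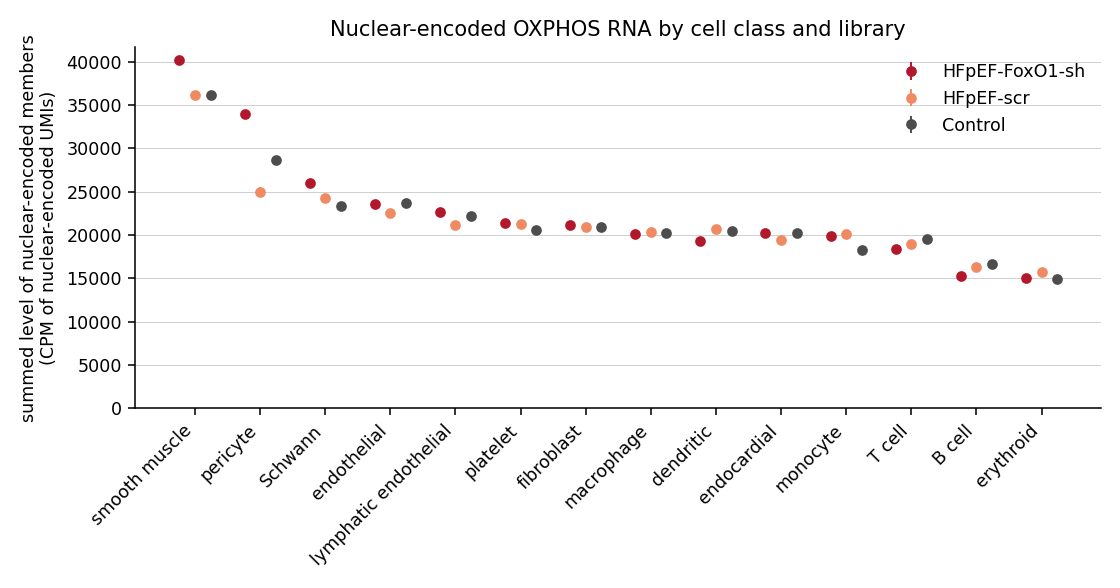
Summed level of the 94 nuclear-encoded members (y axis, CPM of nuclear-encoded UMIs) in the 14 classes (x axis) and 3 libraries, 1 point per class and library, with 95% Poisson intervals that are mostly smaller than the points. Smooth muscle stands highest in each library at 36105 to 40156 CPM, pericytes spread from 24982 to 33957 CPM, and fibroblasts and macrophages sit between 20123 and 21131 CPM.

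In fibroblasts the nuclear members differed little between libraries as a sum, while nearly all core subunits were lowest in HFpEF-scr. The sum was 1.008 times HFpEF-scr in the library labelled HFpEF-FoxO1-sh (1.005 to 1.010) and 1.001 times Control in HFpEF-scr (0.9985 to 1.004). Of 91 measured members (at least 200 UMIs over both libraries), 0 were higher in HFpEF-FoxO1-sh over HFpEF-scr by a log2 ratio of at least 0.32, the size that counts as higher or lower throughout, and 1 was lower, where 3.24% and 3.29% of all measured genes were. Their median log2 ratio was 0.02, against 0.00 over all measured genes, and 58 of the 91 lay above 0. For HFpEF-scr over Control these were 0 higher and 1 lower (all genes 3.35% and 5.29%), with a median of -0.02 for members and for all genes. By the stricter fold of 1.5, 0 members were higher or lower in either comparison, where 0.642% and 0.685% of all genes were in the first and 0.686% and 1.19% in the second.

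Atp5b, the catalytic beta subunit of ATP synthase, had 398 CPM in the library labelled HFpEF-FoxO1-sh, 346 CPM in HFpEF-scr and 389 CPM in Control. Ndufv1, the complex I subunit that binds NADH, had 95.7, 84.9 and 94.3 CPM in the same order. HFpEF-scr was thus the lowest library for both. The Atp5b ratio was 1.15 (1.13 to 1.17) in HFpEF-FoxO1-sh against HFpEF-scr, with 0.889 (0.870 to 0.907) in HFpEF-scr against Control. Of 12 core subunits listed over all complexes, 12 were higher in HFpEF-FoxO1-sh than in HFpEF-scr and 11 were lower in HFpEF-scr than in Control, with Cox4i1 at 659, 654 and 651 CPM as the exception. Of all measured genes there, 48.6% lay above 0 in the first comparison and 43.3% in the second. Some small accessory subunits stood the other way round. Uqcrb, a small subunit of complex III, had 442 CPM in HFpEF-FoxO1-sh, 489 CPM in HFpEF-scr and 430.0 CPM in Control. The hinge protein Uqcrh had 474, 521 and 491 CPM. Complex III as a sum was 0.960 times HFpEF-scr in HFpEF-FoxO1-sh (0.953 to 0.968) and 1.04 times Control in HFpEF-scr (1.03 to 1.05), while complex I was 1.02 (1.02 to 1.03) and 0.986 (0.981 to 0.990).

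Outside the core, the members that stood furthest apart in fibroblasts were mostly rare. Among the lowest for HFpEF-FoxO1-sh over HFpEF-scr were Cox4i2 (0.786, 0.728 to 0.849), Cox6b2, Cox6a2 and Atp5s. Among the highest beside Atp5b were the assembly factors Ndufaf6, with 10.1 against 8.45 CPM (1.20, 1.06 to 1.36), and Ndufaf7, with 22.1 against 19.1 CPM. For HFpEF-scr over Control the lowest was Cox6a2, a muscle isoform, with 4.10 against 5.77 CPM (0.710, 0.589 to 0.855). Heart muscle RNA moved with it in these cells, with 11 of 11 listed genes detected and sums of 58.2 CPM in HFpEF-scr and 80.03 CPM in Control (0.728, 0.693 to 0.764), and its part in that value was not tested. Cox8b, another muscle isoform, had the highest ratio of the members instead, with 5.85 against 5.13 CPM (1.14, 0.958 to 1.36). Cox7c, an accessory subunit of complex IV, was among the highest with 575 against 523 CPM (1.10, 1.08 to 1.12). In 9 fibroblast clusters taken singly, the nuclear sum in HFpEF-FoxO1-sh over that in HFpEF-scr lay between 1.00 and 1.05.

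In macrophages, too, the nuclear sum was level, and complex III and IV were slightly lower in the library labelled HFpEF-FoxO1-sh. The sum was 0.992 times HFpEF-scr (0.986 to 0.998), and 1.00 times Control in HFpEF-scr (0.997 to 1.01). Of 84 measured members, 0 were higher and 0 lower by 0.32 in HFpEF-FoxO1-sh over HFpEF-scr (all genes 3.88% and 4.72%), and the median was 0.00, against -0.02 for all genes. Of 82 for HFpEF-scr over Control, 0 were higher and 1 was lower (all genes 3.44% and 5.84%). At 1.5-fold there were 0 in either comparison, against 0.518% and 0.738% of all genes in the first and 0.749% and 0.793% in the second. Uqcrh was lowest in the first comparison, with 468 CPM in HFpEF-FoxO1-sh and 540.3 CPM in HFpEF-scr, against 490.3 CPM in Control (0.866, 0.832 to 0.900, and 1.10, 1.05 to 1.15). Uqcrh was therefore highest in HFpEF-scr in both fibroblasts and macrophages. Sdha, the flavin-carrying subunit of succinate dehydrogenase, had 87.8 CPM in HFpEF-scr and 102 CPM in Control (0.862, 0.776 to 0.958), and Sdhc, its membrane anchor, had 68.2 and 79.9 CPM (0.854, 0.757 to 0.962). The 4 complex II subunits summed to 386 CPM in HFpEF-FoxO1-sh, 381 CPM in HFpEF-scr and 416 CPM in Control.

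Macrophages fell into a pair of clusters, and their nuclear sums are given apart. In the cluster led by Folr2 and F13a1 (1197, 866 and 721 cells) the nuclear sum in HFpEF-FoxO1-sh was 1.01 times that of HFpEF-scr (0.999 to 1.01). In the cluster led by the class II genes H2-Eb1 and H2-Ab1 (771, 642 and 367 cells) it was 0.945 (0.935 to 0.955), with 18455, 19527 and 18975 CPM in HFpEF-FoxO1-sh, HFpEF-scr and Control. The median log2 ratio over members there was -0.075, against -0.06 over all measured genes of that cluster.

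In endothelial cells the nuclear members were lower in HFpEF-scr than in either other library. The library labelled HFpEF-FoxO1-sh had a sum of 23591 CPM (23448 to 23735), against 22566 CPM in HFpEF-scr (22446 to 22687), and 23695 CPM in Control (23549 to 23841). This made 1.05 times HFpEF-scr in HFpEF-FoxO1-sh (1.04 to 1.05) and 0.952 times Control in HFpEF-scr (0.945 to 0.960). Of 83 measured members, 68 lay above 0 in the first comparison, with a median of 0.08 against 0.01 for all genes. In the second 16 of 83 did, with a median of -0.08 against 0.00. By size the shifts were small, with 2 members higher and 0 lower in the first (all genes 7.68% and 4.6%) and 0 higher and 4 lower in the second (all genes 5.18% and 7.11%). At 1.5-fold there were 0 in either comparison, against 1.7% and 0.446% of all genes in the first and 0.781% and 1.28% in the second. Complex I held 7130.3, 6603 and 7029 CPM, a ratio of 1.08 (1.06 to 1.10) and 0.939 (0.925 to 0.954), while complex III was level at 2723, 2717 and 2710.5 CPM.

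The endothelial members furthest apart were Cox4i2 and Ndufa4l2, taken up below, and the assembly factors Ndufaf4 and Ndufaf3. Ndufaf4 had 38.3 CPM in HFpEF-FoxO1-sh and 30.8 CPM in HFpEF-scr, against 43.2 CPM in Control, a ratio of 0.713 (0.578 to 0.880) for HFpEF-scr over Control that turned to 0.09 on the log2 scale with at most 10% mitochondrial UMIs. Ndufaf3 had 38.0 CPM in HFpEF-scr and 47.9 CPM in Control (0.794, 0.654 to 0.965). Uqcrfs1, the iron-sulphur protein of complex III, had 112 CPM in HFpEF-FoxO1-sh and 89.8 CPM in HFpEF-scr (1.24, 1.10 to 1.41). Fibroblast markers, all 12 of them detected, moved in the same direction as the members in this class, with 7970 CPM in HFpEF-FoxO1-sh, 6104 CPM in HFpEF-scr and 8317 CPM in Control. Endothelial markers were opposite, at 37517, 43363 and 32167 CPM, and the part of either in the result was not tested. In the cluster led by Fabp4 and Gpihbp1, which held 415, 522 and 343 of the cells, the ratios were 1.04 (1.03 to 1.05) and 0.952 (0.943 to 0.961). In the cluster led by Rgs5 and Sox17 they were 1.01 (0.996 to 1.03) and 0.981 (0.967 to 0.996), so the first difference was not detectable there at this depth.

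**Figure D2:**
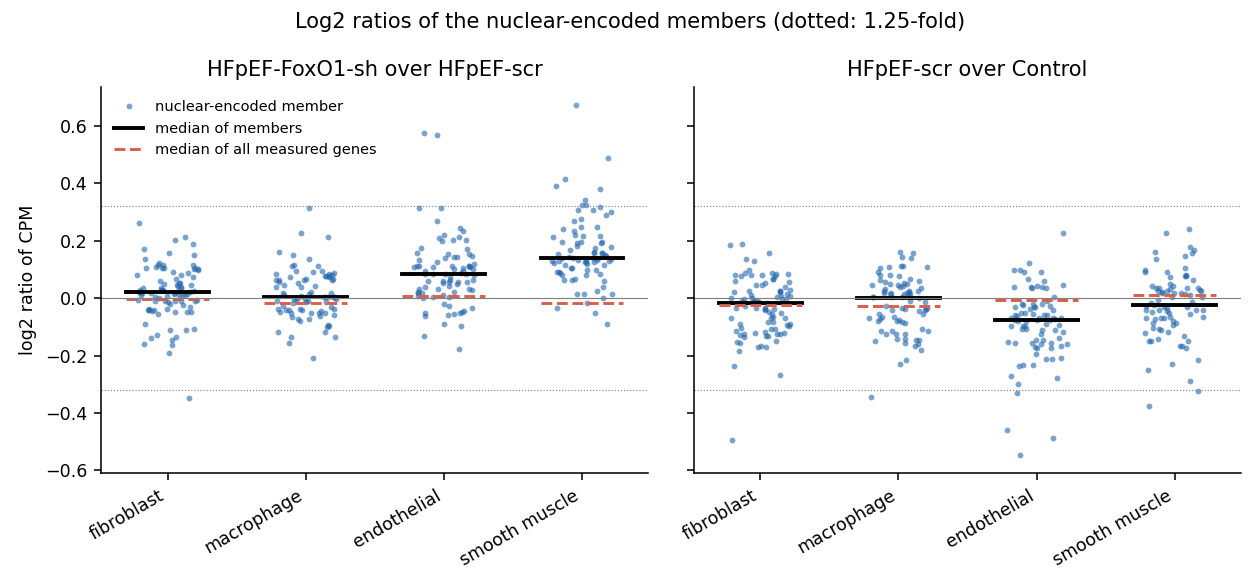
Log2 ratio of CPM (y axis) of each measured nuclear-encoded member in the 4 main classes (x axis), for HFpEF-FoxO1-sh over HFpEF-scr (left) and HFpEF-scr over Control (right). Each point is a member, black bars are medians of members, dashed bars medians of all measured genes and dotted lines log2 ratios of 0.32 either way; the members' median is 0.14 in smooth muscle on the left, against -0.02 for all genes there, and -0.08 in endothelial cells on the right.

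Smooth muscle cells had the largest median difference of the 4 main classes for HFpEF-FoxO1-sh over HFpEF-scr within the limit of 20% mitochondrial UMIs. The sum was 1.11 times HFpEF-scr in the library labelled HFpEF-FoxO1-sh (1.10 to 1.12), and 1.00 times Control in HFpEF-scr (0.993 to 1.01). Of 82 measured members, 78 lay above 0 in HFpEF-FoxO1-sh over HFpEF-scr, 8 were higher and 0 lower by at least 0.32, where 5.52% and 8.95% of all measured genes were. The median was 0.14, against -0.02 over all genes. For HFpEF-scr over Control, 37 of 82 lay above 0, with 0 higher and 2 lower (all genes 6.89% and 5.31%). At 1.5-fold 1 member, Cox4i2, was higher in the first comparison and 0 were in the second, with 0 lower in both, against 0.441% and 1.39% of all genes in the first and 0.932% and 0.802% in the second. All complexes took part, since HFpEF-FoxO1-sh over HFpEF-scr gave 1.12 for complex I (1.11 to 1.14), 1.10 for complex II (1.03 to 1.17), 1.08 for complex III (1.05 to 1.10), 1.10 for complex IV (1.08 to 1.11) and 1.13 for complex V (1.11 to 1.15).

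Core subunits were among the members furthest apart. Uqcrc2, a core protein of complex III, had 170.0 CPM in HFpEF-FoxO1-sh and 129.5 CPM in HFpEF-scr, against 158 CPM in Control. Atp5b had 883, 714 and 759 CPM, Ndufv1 145, 115 and 118 CPM, and Sdhb, the iron-sulphur subunit of complex II, 205, 163 and 176 CPM. In each of these genes the library labelled HFpEF-FoxO1-sh was the highest and HFpEF-scr the lowest. Of the 12 core subunits, 12 were higher in HFpEF-FoxO1-sh than in HFpEF-scr and 10 were lower in HFpEF-scr than in Control, where 47% and 51.9% of all measured genes lay above 0 in these comparisons. In macrophages those counts were 9 and 7 of 12 (all genes above 0 46.1% and 42.8%), and in endothelial cells 9 and 11 (all genes 51.4% and 49.1%). Some accessory subunits of complexes III and IV did not follow, with Uqcrb at 836 CPM in HFpEF-FoxO1-sh and 845 CPM in HFpEF-scr, Cox6b1 at 685 and 701 CPM, and Cox6a1 at 395 and 420.1 CPM. For HFpEF-scr over Control, Cox6b1 was among the highest with 701 against 599 CPM (1.17, 1.10 to 1.24), and Uqcrc2 (0.818, 0.716 to 0.933) and the assembly factor Ndufaf2 (0.770, 0.614 to 0.962) were among the lowest.

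The smooth muscle shift was not uniform over cells and was lost without the mitochondrial limit. In the cluster led by Myh11 and Sorbs2 (200, 185 and 196 cells) the nuclear sum was 52324 CPM in HFpEF-FoxO1-sh, 44243 CPM in HFpEF-scr and 44924 CPM in Control, a ratio of 1.18 (1.17 to 1.20) to HFpEF-scr at near equal mitochondrial shares (14.9%, 15.1% and 15.03%). In the cluster led by Sost and Acta2 (148, 167 and 194 cells) it was 28975, 29037 and 28568 CPM, a ratio of 0.998 (0.985 to 1.01). Without the limit the class sums were 43207, 43670 and 42563 CPM, and the members' median was -0.01. In smooth muscle the nuclear sum was higher at larger mitochondrial shares up to 35%, and the libraries differed in how many such barcodes they held, with 26.0%, 50.2% and 50.7% of the class over the limit. Between 5% and 10% mitochondrial UMIs the sums were 30073 CPM in HFpEF-FoxO1-sh, 27705 CPM in HFpEF-scr and 26593 CPM in Control. From 10% to 15% they were 41750, 34550 and 33140 CPM in the same order, from 15% to 20% 57165, 45669 and 46958 CPM, and from 20% to 35% 63705, 60071 and 56950 CPM. At each of these shares HFpEF-FoxO1-sh was the highest library. From 35% to 50% HFpEF-scr had 59506 CPM (36 barcodes) and Control 52338 CPM (47 barcodes), no higher than in the range before, and HFpEF-FoxO1-sh is not compared there. Haemoglobin and other erythroid markers summed to 5786 CPM in HFpEF-FoxO1-sh smooth muscle, against 18655 CPM in HFpEF-scr and 11296 CPM in Control, with 7 of the 9 detected in all 3 libraries and the others, Slc4a1 among them, at 0 in at least 1. With those markers out of the denominator the median was 0.12. Smooth muscle markers, all 13 detected, moved the same way as the members, with 63626, 55222 and 57480 CPM in HFpEF-FoxO1-sh, HFpEF-scr and Control (1.15, 1.14 to 1.16, for HFpEF-FoxO1-sh over HFpEF-scr). Fibroblast markers were opposite, at 6595, 7969 and 8703 CPM (0.828, 0.812 to 0.843). The part of the smooth muscle and fibroblast markers in the result was not tested.

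Pericytes had the largest difference of these 5 classes within the limit of 20% mitochondrial UMIs, on few cells. Their sum was 33957 CPM in the library labelled HFpEF-FoxO1-sh, 24982 CPM in HFpEF-scr and 28654 CPM in Control, a ratio of 1.36 (1.33 to 1.39) and of 0.872 (0.851 to 0.893) for HFpEF-scr over Control. Of 73 measured members 47 were higher in HFpEF-FoxO1-sh over HFpEF-scr by at least 0.32 and 1 was lower, against 31.0% and 16.5% of all measured genes, with a median of 0.39 against 0.11. For HFpEF-scr over Control, 1 of 57 was higher and 9 were lower (all genes 16.8% and 17.0%), with a median of -0.14 against -0.04. Complex IV, which includes Cox4i2 and Ndufa4l2, was 1.45 (1.39 to 1.51) for HFpEF-FoxO1-sh over HFpEF-scr, and complex V 1.29 (1.23 to 1.35). Other RNA moved with these sums. Erythroid markers were 17009, 45647 and 31566 CPM and fibroblast markers 9663, 18546 and 17767 CPM, while 11 pericyte markers summed to 26419, 16941 and 20122 CPM. With erythroid markers out of the denominator the ratio was 1.32 (1.29 to 1.35) and the median 0.35, and the part of the other markers was not tested. With at most 10% mitochondrial UMIs, which left 40, 9 and 14 cells, the sums were 24456, 23777 and 23485 CPM. HFpEF-FoxO1-sh was then 1.03 times HFpEF-scr (0.981 to 1.08), and HFpEF-scr 1.01 times Control (0.959 to 1.07). Without the mitochondrial limit, at 617, 352 and 737 barcodes, the sums were 35278, 31158 and 34160 CPM, a ratio of 1.13 (1.12 to 1.15) for HFpEF-FoxO1-sh over HFpEF-scr. Of the class barcodes, 45.5%, 79.5% and 80.7% were over the limit in HFpEF-FoxO1-sh, HFpEF-scr and Control. Kept pericytes had median depths of 3407, 5302.5 and 5062.5 UMIs in the same order. The part of these differences in the ratios was not tested.

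Several complex IV subunits have alternative forms, and these parted the cell classes. Cox4i2 (chromosome 2, 152754173 to 152765037, plus strand) encodes the form of subunit 4 found in lung and vessel walls and responsive to low oxygen, in place of the common Cox4i1. Its level was 1489.9 CPM in the library labelled HFpEF-FoxO1-sh, 668 CPM in HFpEF-scr and 1036 CPM in Control in pericytes, and 273, 171 and 189 CPM in smooth muscle cells. Endothelial cells held 221, 148 and 203 CPM, fibroblasts 21.1, 26.8 and 30.2 CPM, and macrophages 2.14, 2.11 and 2.26 CPM, which is 15 to 25 UMIs per library. Free RNA in droplets can give so low a level in cells that do not express a gene. Cox4i1 itself varied far less between classes, from 651 CPM in Control fibroblasts to 1097 CPM in HFpEF-FoxO1-sh smooth muscle among these classes.

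Ndufa4l2 (chromosome 10, 127514967 to 127517154, plus strand) encodes a relative of Ndufa4, a complex IV subunit first assigned to complex I, and is induced by hypoxia. It is a listed pericyte marker, but members took no part in clustering or naming, so pericytes were named without it. Its order over classes is a description. It had 2421, 1094 and 1710.1 CPM in pericytes of HFpEF-FoxO1-sh, HFpEF-scr and Control, 319, 227 and 192 CPM in smooth muscle, 266, 179.6 and 263 CPM in endothelial cells and 179.1, 197 and 199.3 CPM in fibroblasts. Macrophages held 5.47, 5.17 and 6.47 CPM. Ndufa4 itself was opposite in pericytes, with 118, 257 and 186 CPM, and was the single member called lower there (0.458, 0.352 to 0.599, for HFpEF-FoxO1-sh over HFpEF-scr). Without the mitochondrial limit Ndufa4 in pericytes was 91.6, 139 and 87.4 CPM. Over 42 pairs of class and library, Ndufa4l2 was the member whose log2(CPM + 1) was most like that of Cox4i2 (Pearson r = 0.92), followed by Cyc1 (0.74). These points share libraries, depth and cell classes, so r is a description. Ndufb7 was most like Cox4i1 (0.89).

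Between libraries, Cox4i2 and Ndufa4l2 were the members with the largest ratios for HFpEF-FoxO1-sh over HFpEF-scr in all 3 vessel wall classes. Cox4i2 was 2.23 (1.96 to 2.55) in pericytes, 1.60 (1.43 to 1.79) in smooth muscle and 1.49 (1.36 to 1.64) in endothelial cells, and 0.786 in fibroblasts. Ndufa4l2 was 2.21 (2.00 to 2.46), 1.40 (1.27 to 1.55) and 1.48 (1.36 to 1.61) in the vessel wall classes, but the endothelial value turned to -0.016 on the log2 scale when each cell was thinned to 1000 nuclear UMIs. For HFpEF-scr over Control both were lower in pericytes, at 0.644 (0.558 to 0.743) for Cox4i2 and 0.640 (0.572 to 0.715) for Ndufa4l2. In endothelial cells that comparison gave 0.727 (0.661 to 0.799) and 0.684 (0.628 to 0.744). In smooth muscle Ndufa4l2 was the highest member for HFpEF-scr over Control instead, at 1.18 (1.06 to 1.32).

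The endothelial values came mostly from a cluster led by Rgs5 and Sox17, 124, 148 and 117 cells that also carry the pericyte marker Rgs5. Cox4i2 was 669, 517 and 653 CPM there (ratio to HFpEF-scr 1.29, 1.17 to 1.43), and 53.2, 41.6 and 48.6 CPM in the cluster led by Fabp4 and Gpihbp1 (1.28, 1.03 to 1.58). Pericyte markers other than Ndufa4l2 summed to 4169, 3126 and 3726 CPM in endothelial cells, all 11 detected, and moved in the same direction as Cox4i2. Their part in the result was not tested. In smooth muscle the cluster led by Myh11 held Cox4i2 at 514, 319 and 366 CPM (1.61, 1.43 to 1.82), and the cluster led by Sost at 50.3, 40.7 and 38.8 CPM. Without the mitochondrial limit Cox4i2 in smooth muscle was 337 CPM in HFpEF-FoxO1-sh, 367 CPM in HFpEF-scr and 376 CPM in Control, and Ndufa4l2 was 395, 480.5 and 409 CPM, so the direction of the first comparison turned. In pericytes it did not turn, with Cox4i2 at 1613, 1139.6 and 1639.7 CPM and Ndufa4l2 at 2615, 1892 and 2565 CPM, and in endothelial cells Cox4i2 was 172, 118 and 148 CPM.

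**Figure D3:**
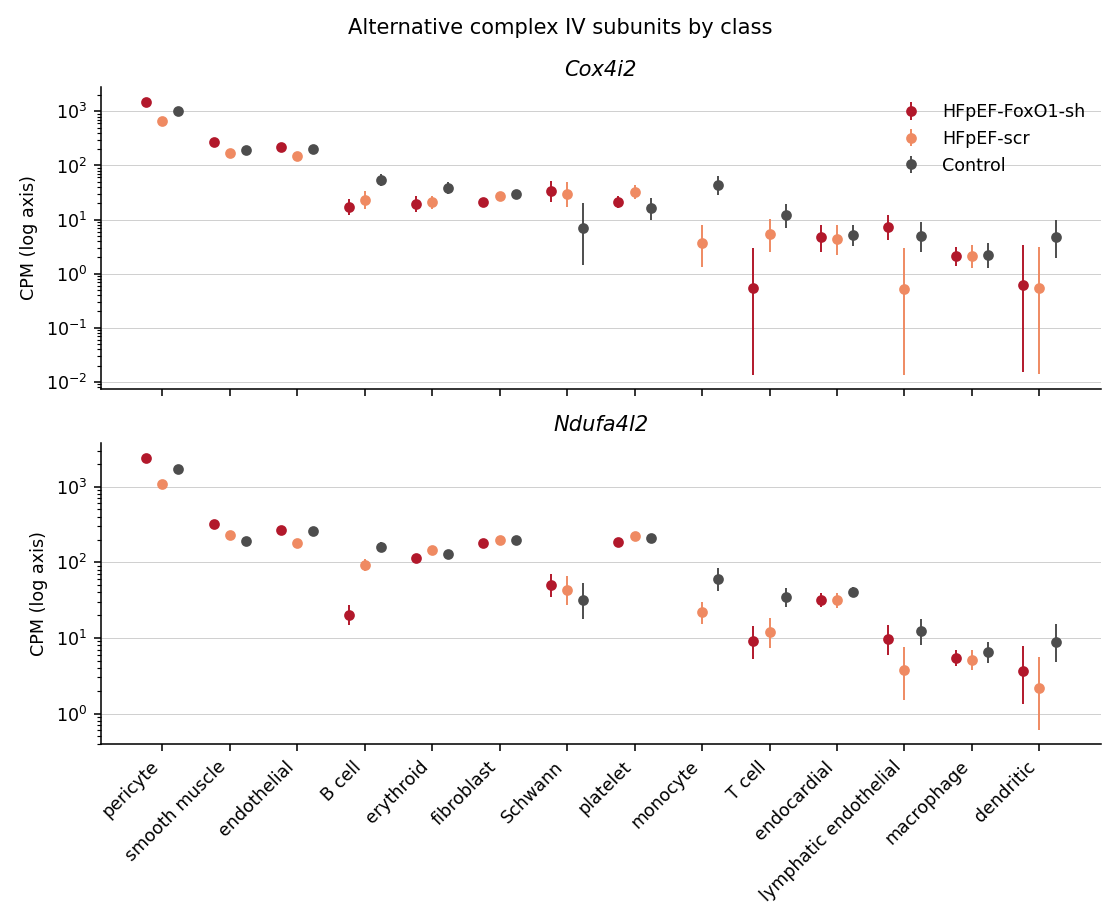
Levels of Cox4i2 (top) and Ndufa4l2 (bottom) in CPM on a log axis (y) in 14 classes (x), 1 point per class and library with its 95% Poisson interval; monocytes of HFpEF-FoxO1-sh had 0 UMIs for both and are not drawn. Pericytes stand highest at 668 to 1489.9 CPM for Cox4i2 and 1094 to 2421 CPM for Ndufa4l2, with HFpEF-scr the lowest of the 3 libraries in that class.

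The muscle isoforms Cox6a2, Cox7a1 and Cox8b were high in the few cells with heart muscle markers and at most 44.1 CPM in any library of the 14 classes. In those cells Cox6a2 had 2098, 1969 and 3531 CPM in the library labelled HFpEF-FoxO1-sh, HFpEF-scr and Control, Cox7a1 had 1346, 765 and 2677 CPM, and Cox8b had 1224, 579.7 and 1620.0 CPM. In fibroblasts they were 3.66 to 5.77 CPM, 8.19 to 8.84 CPM and 5.13 to 5.85 CPM over the libraries. Cox6a2 was somewhat higher in endothelial cells, at 22.5, 24.7 and 27.0 CPM, where 15 heart muscle markers summed to 409, 435 and 399 CPM. Dendritic cells were close by the mean of the libraries, at 24.5 CPM against 24.7 CPM. There the same markers summed to 45.3, 57.7 and 48.1 CPM, with 11 of the 15 detected in all 3 libraries. The part of heart muscle RNA in these Cox6a2 values was not tested. The common counterparts of the muscle isoforms were present throughout, with Cox8a at 779, 784 and 831 CPM in fibroblasts and 2001, 1846 and 1827 CPM in smooth muscle. The 3 genes for subunit c of ATP synthase, which form the rotor ring, were all expressed, with Atp5g1 at 336, 331 and 335 CPM, Atp5g2 at 334, 337 and 330.0 CPM and Atp5g3 at 249, 269 and 246 CPM in fibroblasts. These paralogues encode the same mature protein, and their reads were told apart by the authors' counting.

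The 13 mitochondrially encoded members behaved apart from the nuclear ones. They made up 8.70% of all UMIs in fibroblasts of the library labelled HFpEF-FoxO1-sh, 12.0% in HFpEF-scr and 12.3% in Control, and 9.84%, 13.3% and 13.9% in macrophages. HFpEF-FoxO1-sh thus had 0.723 times the share of HFpEF-scr in fibroblasts (0.722 to 0.723) and 0.741 times in macrophages (0.739 to 0.743), where the nuclear sums were 1.01 and 0.992 times. HFpEF-scr over Control gave 0.977 (0.976 to 0.978) and 0.952 (0.950 to 0.955). The difference was smaller in smooth muscle (11.8%, 13.1% and 13.3%; 0.901, 0.897 to 0.905) and in endothelial cells (13.8%, 13.99% and 15.1%; 0.989, 0.986 to 0.992), and not detectable at this depth in pericytes (13.5%, 13.4% and 14.4%; 1.00, 0.995 to 1.01). Over the 14 classes the ratio ran from 0.686 in endocardial cells to 1.05 in B cells. The B cell class differed in make-up between HFpEF-FoxO1-sh, HFpEF-scr and Control. Its fibroblast markers summed to 4036, 24262 and 28387 CPM and its erythroid markers to 14529, 59762 and 39462 CPM. Their part in the B cell ratio was not tested.

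The mitochondrial limit caps this measure by construction, and the picture without it was more uniform. All 14 classes were then lower in HFpEF-FoxO1-sh than in HFpEF-scr, with ratios of 0.626 to 0.908. Endothelial cells held 21.7% in HFpEF-FoxO1-sh, 23.9% in HFpEF-scr and 27.7% in Control, and pericytes 18.1%, 24.98% and 24.6%. Smooth muscle held 13.8%, 18.2% and 17.9%, macrophages 10.7%, 16.5% and 17.3%, and fibroblasts 9.07%, 13.1% and 13.5%. Of the class barcodes, 65.8%, 73.1% and 82.2% of endothelial cells and 6.06%, 11.4% and 13% of fibroblasts were over the limit. Barcodes over it took the class of their nearest kept cells, and in endothelial cells their endothelial markers summed to 64671, 64782 and 52283 CPM, above the kept cells. Control remained the highest endothelial library in either case. With 1 library per group, a difference in mitochondrial share between treatments and one between libraries cannot be told apart.

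**Figure D4:**
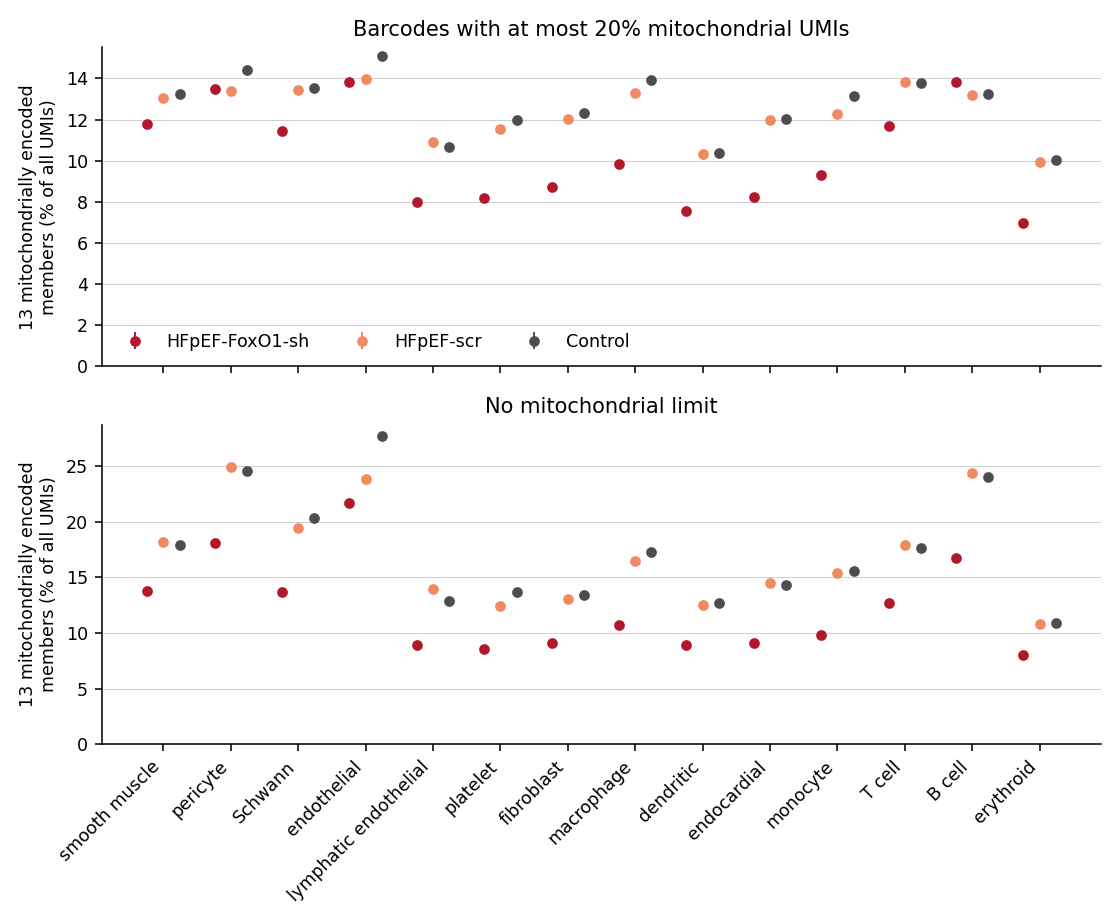
Summed share of the 13 mitochondrially encoded members (y axis, percent of all UMIs) in 14 classes (x axis) and 3 libraries, for barcodes with at most 20% mitochondrial UMIs (top) and with no limit (bottom). With no limit, HFpEF-FoxO1-sh lies below HFpEF-scr in all 14 classes, at 9.07% against 13.1% in fibroblasts and 21.7% against 23.9% in endothelial cells.

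The single mitochondrial genes all took part in fibroblasts. mt-Atp6, subunit a of ATP synthase, was 1.81% of all UMIs in HFpEF-FoxO1-sh, 2.39% in HFpEF-scr and 2.57% in Control. mt-Co2, the copper-bearing subunit 2 of complex IV, was 1.44%, 2.01% and 2.11%, mt-Co1, its catalytic subunit, 1.10%, 1.56% and 1.58%, and mt-Co3 1.28%, 1.83% and 1.88%. mt-Cytb, the only mitochondrially encoded subunit of complex III, was 1.10%, 1.55% and 1.5%. HFpEF-FoxO1-sh was the lowest library for each. Among complex I genes mt-Nd4 was 0.642%, 0.983% and 0.919%, mt-Nd2 0.483%, 0.617% and 0.667%, and mt-Nd1 0.335%, 0.438% and 0.438%. mt-Nd6, encoded on the other strand, was the rarest at 0.00848%, 0.0120% and 0.0106%. Ratios of HFpEF-FoxO1-sh over HFpEF-scr ran from 0.652 for mt-Nd4 to 0.861 for mt-Atp8, so the 13 genes did not move by 1 factor.

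Taken as shares of mitochondrial UMIs, HFpEF-scr lay at the end of the range in each of the 14 classes for 3 of the genes. mt-Nd4, a proton-pumping subunit of complex I (mitochondrial DNA, 10167 to 11544, plus strand), made up 7.37% of mitochondrial UMIs in HFpEF-FoxO1-sh fibroblasts, 8.17% in HFpEF-scr and 7.46% in Control. Its share was below that of HFpEF-scr in all 14 classes in HFpEF-FoxO1-sh (ratio 0.858 to 0.942, median 0.900), and above that of Control in all 14 in HFpEF-scr (1.06 to 1.13, median 1.09). mt-Nd2 was the reverse, with 1.04 to 1.13 in HFpEF-FoxO1-sh against HFpEF-scr and 0.919 to 0.993 in HFpEF-scr against Control. mt-Atp6 was too, with 1.01 to 1.06 and 0.934 to 0.972. mt-Atp8, which overlaps mt-Atp6 on the same transcript (7766 to 7969 and 7927 to 8607), was 1.07 to 1.249 for HFpEF-FoxO1-sh over HFpEF-scr, above 1 in 14 classes, and below 1 for HFpEF-scr over Control in 13 of 14. For mt-Nd4, mt-Nd2 and mt-Atp6 this place of HFpEF-scr held in all 14 classes without the mitochondrial limit too. The classes of a library come from the same pool, reaction and sequencing run, so 14 classes are 1 library seen 14 times.

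mt-Nd5 (1.05 to 1.18), mt-Cytb (1.03 to 1.08) and mt-Nd6 (1.05 to 1.44) also had higher shares in HFpEF-scr than in Control in all 14 classes, and mt-Co2 lower ones (0.949 to 0.979). Between HFpEF-FoxO1-sh and HFpEF-scr those genes did not keep 1 direction over the classes, with mt-Nd5 below 1 in 11, mt-Nd6 in 9, mt-Cytb in 12 and mt-Co2 in 4. mt-Nd4l, which shares a transcript with mt-Nd4 and overlaps it, was above 1 in all 14 in both comparisons, but without the mitochondrial limit it was below 1 in 3 of 14 for HFpEF-FoxO1-sh over HFpEF-scr (lowest 0.949). The catalytic gene mt-Co1 stayed between 0.945 and 1.04 in both.

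**Figure D5:**
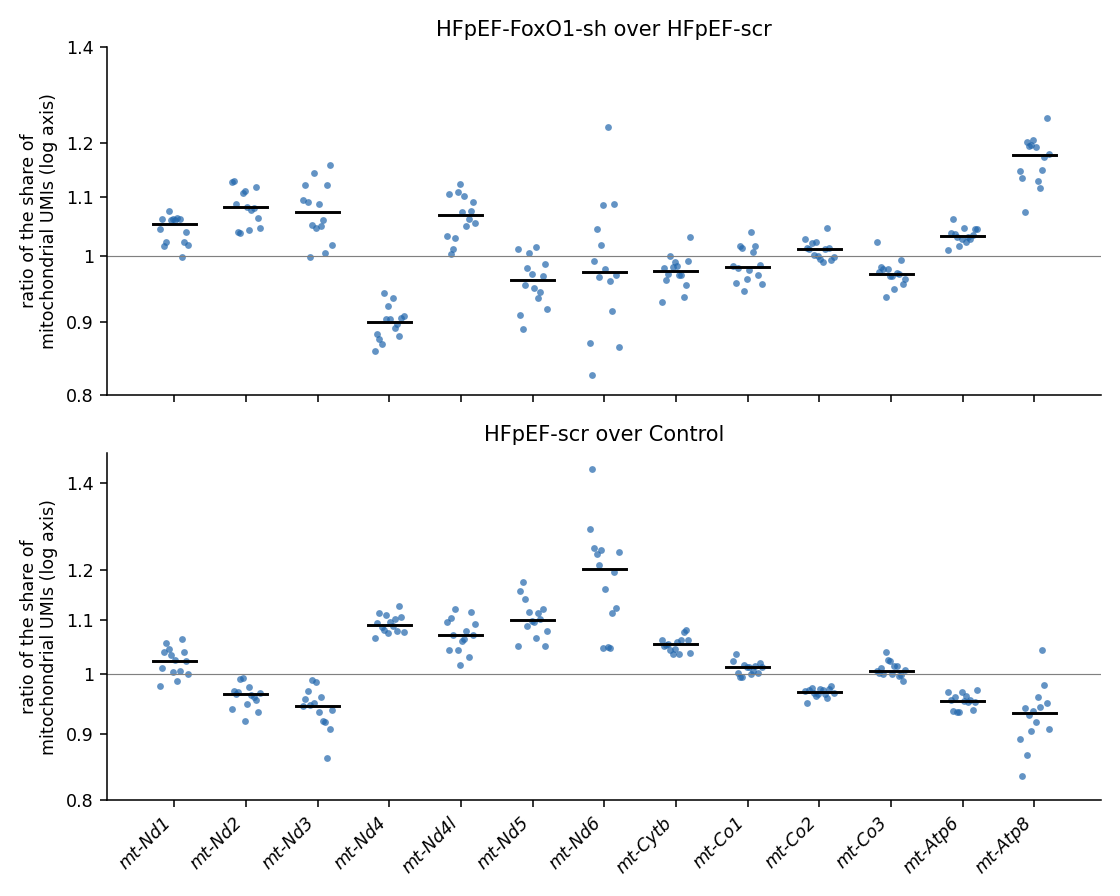
Ratio of each mitochondrially encoded gene's share of mitochondrial UMIs (y axis, log scale) for HFpEF-FoxO1-sh over HFpEF-scr (top) and HFpEF-scr over Control (bottom), with 13 genes on the x axis. Each point is 1 of 14 classes and bars are medians; mt-Nd4 lies below 1 in all classes at the top (median 0.900) and above 1 in all at the bottom (median 1.09).

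Other genes of mitochondrial energy metabolism were read in the same way. In smooth muscle, HFpEF-FoxO1-sh over HFpEF-scr gave a median log2 ratio of 0.14 over 53 measured mitochondrial ribosome genes with 8 higher by at least 0.32, and of 0.17 over 17 citric acid cycle genes with 3 higher. The 9 measured genes of electron carriers and inner membrane transport had a median of 0.20, with 2 higher, and 14 assembly factors other than Ndufaf genes 0.10, with 2 higher. None of these 4 lists had a member lower by that size, and the shares for all genes are those given for this class above. Slc25a4, the ADP/ATP carrier, had 1224 CPM in HFpEF-FoxO1-sh, 970.0 CPM in HFpEF-scr and 1062 CPM in Control. Idh3g and Fh1, of the citric acid cycle, had 129.5 against 95.7 CPM and 84.7 against 63.9 CPM. Mrps12, of the mitochondrial ribosome, had 80.7 CPM in HFpEF-FoxO1-sh, 53.1 CPM in HFpEF-scr and 70.2 CPM in Control.

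In endothelial cells 68 mitochondrial ribosome genes had a median of 0.09 for HFpEF-FoxO1-sh over HFpEF-scr, with 9 higher, and of -0.14 for HFpEF-scr over Control, with 8 lower. The shares of all genes were 7.68% higher in the first comparison and 7.11% lower in the second. Mrps10 had 22.9 CPM in HFpEF-scr and 31.4 CPM in Control, and Mrpl40 had 40.3 CPM in HFpEF-FoxO1-sh and 27.6 CPM in HFpEF-scr. Ucp2, an inner membrane carrier of the uncoupling protein family, was the reverse of the respiratory members, with 144, 181 and 122 CPM in HFpEF-FoxO1-sh, HFpEF-scr and Control. Tfam, which packages mitochondrial DNA and starts its transcription, had 31.2 CPM in HFpEF-FoxO1-sh and 23.0 CPM in HFpEF-scr (1.35, 1.06 to 1.73), and Gabpa, the ETS factor of respiratory promoters, 44.6 and 58.7 CPM (0.760, 0.635 to 0.908). Of 30 regulators of mitochondrial biogenesis, 12 were measured in endothelial cells and 24 in fibroblasts. In fibroblasts the medians of these lists lay between -0.09 and 0.07 in both comparisons.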

How the data were processed

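The authors deposited raw counts of UMIs per gene and barcode, made with Cell Ranger 6.1.2 on mm10, per the submitters' processing notes. The annotation release is not given in the sources used here, and the counts carry no normalization. Kept barcodes had 500 or more UMIs, 300 or more genes and no more than 20% mitochondrial UMIs. Scrublet (expected rate 12%) removed 537, 342 and 182 doublets in HFpEF-FoxO1-sh, HFpEF-scr and Control, or 3.09%, 2.29% and 1.41%, so that others may remain. Cells were clustered with scanpy 1.11.5 and leidenalg 0.10.2 (2000 variable genes, 30 components, 15 neighbours, resolution 1.0), without batch correction, and 34 of 36 clusters were named from marker lists of 22 classes. Members took no part in clustering and were left out of the marker lists. All 10 clusters of the fibroblast class, and no others, got their name only from a second comparison, against clusters already named as other classes. That comparison was added after the clusters were seen. Barcodes over the limit took the class of their nearest kept cells.

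UMIs were summed per class and library with Python 3.11.15, numpy 2.4.6, scipy 1.17.1 and pandas 2.3.3. Nuclear members are in CPM of nuclear-encoded UMIs and mitochondrial ones in percent of all UMIs. Levels carry exact Poisson and ratios exact conditional binomial 95% intervals, which treat UMIs as independent and cover neither cells nor animals. No p-value could be had from 1 library per group. On simulated counts these intervals held the true ratio of 95.5% to 97.0% of the changed genes. Those counts were Poisson draws from a pooled profile, the model that the intervals assume. The simulation therefore checks the calculation and says nothing on spread between cells, animals or libraries. Ratios needed at least 200 UMIs over both libraries, and the calls are by size only (a log2 ratio of 0.32). Gene positions are from a GENCODE annotation of GRCm38, matched by Ensembl identifier. Named are the 4 highest and 4 lowest measured nuclear members per main class and comparison, all mitochondrial members, isoform groups, 12 core subunits and, from other lists, the 3 members furthest from 0. Values for further members are given as examples chosen after their values were seen. The members and lists were chosen with earlier results of these data known. Some members that the rule names are not reported here.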

Additional observations from a re-analysis of the deposited data

How the results depend on the processing

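All log2 ratios here are HFpEF-FoxO1-sh over HFpEF-scr, called the hairpin comparison, or HFpEF-scr over Control, called the HFpEF comparison, whose libraries differ in diet and vector. No paired analysis was possible because each group has 1 library, and for the same reason no replicate could be left out. Over all alternatives 67 medians of nuclear members stayed within a binomial interval of the median over members and 19 moved, 6 of them with at most 10% mitochondrial UMIs. Medians of nuclear members under at most 10% mitochondrial UMIs were, in the hairpin comparison, 0.0080 in fibroblasts, -0.10 in macrophages and 0.038 in endothelial cells, and in the HFpEF comparison 0.044 in macrophages, -0.037 in endothelial cells and 0.043 in smooth muscle. In smooth muscle the median of the hairpin comparison was -0.013 with at most 50% mitochondrial UMIs and -0.014 with no limit. With CPM over all UMIs the hairpin comparison gave 0.074 in fibroblasts and 0.060 in macrophages, and the HFpEF comparison -0.058 in endothelial cells. Thinning each cell to 1000 nuclear UMIs gave medians of 0.036 and -0.023 in endothelial cells for the hairpin and HFpEF comparisons, and 0.050 in smooth muscle for the HFpEF comparison. Centring on all measured genes moved the HFpEF comparison to 0.0063 in fibroblasts and 0.029 in macrophages. Alternatives chosen after seeing the data gave, for smooth muscle in the hairpin comparison, 0.24 within the cluster led by Myh11 and Sorbs2, -0.0067 within that led by Sost and Acta2, and 0.12 without erythroid markers in the denominator.

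The mitochondrial share moved beyond its narrow counting interval under most alternatives and kept the direction of the differences of at least 0.32, those of fibroblasts and macrophages in the hairpin comparison. In the hairpin comparison its log2 ratio in fibroblasts was -0.17 with at most 10%, -0.52 with at most 50%, -0.53 with no limit, -0.47 at resolution 2.0 and -0.44 after thinning. In macrophages these were -0.10, -0.59, -0.63, -0.47 and -0.42. In endothelial cells they were 0.042 at 10%, -0.10 at 50%, -0.14 with no limit, -0.026 after thinning and -0.022 without the cluster that holds pericyte markers. In smooth muscle they were -0.041 at 10%, -0.38 at 50%, -0.40 with no limit, -0.16 at resolution 2.0 and -0.17 after thinning, with -0.023 and -0.36 within the clusters led by Myh11 and by Sost. In the HFpEF comparison the fibroblast values were -0.0064 at 10%, -0.038 at 50%, -0.037 with no limit and -0.027 after thinning. Macrophages had -0.090 at 10%, -0.065 with no limit, -0.057 at resolution 2.0 and -0.038 after thinning. Endothelial cells had -0.076 at 10%, -0.21 at 50%, -0.21 with no limit, -0.10 at resolution 2.0, -0.076 after thinning and -0.10 without the pericyte-marker cluster. Smooth muscle had -0.073 at 10%, 0.0054 at 50%, 0.022 with no limit, -0.014 at resolution 2.0 and 0.027 after thinning, with 0.0082 and -0.063 within the clusters led by Myh11 and by Sost.

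Summed over the 4 main classes, the hairpin comparison had 10 members higher and 1 lower, and the HFpEF comparison 0 higher and 8 lower. Of all measured genes, 3.24% to 7.68% per class were higher and 3.29% to 8.95% lower in the hairpin comparison. In the HFpEF comparison these shares were 3.35% to 6.89% and 5.29% to 7.11%. The shares under the alternatives are not given, so the counts that follow describe the settings only. The hairpin comparison had 19 higher with a minimum of 50 UMIs, 3 with at most 50% mitochondrial UMIs, 2 with no limit and 1 at 1.5-fold. Its lower members were 2 at 10%, 2 at 50%, 2 with no limit and 2 after thinning, and 0 at 1.5-fold and over all UMIs. The HFpEF comparison had 3 higher and 14 lower with a minimum of 50 UMIs, 1 higher at 10%, 4 higher and 4 lower after thinning, and 0 lower at 1.5-fold. Of 687 values for named members under alternatives, 10 turned their direction. These were Cox6b2 in macrophages in the HFpEF comparison (0.60 at 10%, 0.14 after thinning), Ndufaf4 in endothelial cells in the HFpEF comparison (0.093 at 10%), and Ndufa4l2 in endothelial cells in the hairpin comparison (-0.016 after thinning). The others were in smooth muscle in the hairpin comparison, Ndufa4l2 (-0.18 at 10%, -0.27 at 50%, -0.28 with no limit, -0.16 within the cluster led by Sost) and Cox4i2 (-0.12 at 50%, -0.12 with no limit). The cause was not tested.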
